A study of Mus musculus with 7 samples.

Results

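The transcripts followed here are those of 41 genes that encode heat shock proteins, cytosolic and mitochondrial chaperones, their partner proteins and the heat shock factors, taken by gene name from 22053 protein-coding rows of an RNA sequencing table of mouse kidney cortex. All 41 names were found, on 42 rows, since Hspa14 has 2. By the known behaviour of the genes, but with earlier results of these data known, 19 were set down as stress-induced and 22 as constitutive. The 4 BPS-TA kidneys, labelled TC after the triple cross (TC-7, TC-8, TC-11, TC-12), came from mice that carry the transgenes GGT-TTA, GGT-HIF1A_M3 and BPS-TRE-CAS9n, and the 3 WT kidneys (WT-5, WT-6 and WT-7) came from wild type mice. Both groups were of the C57BL/6 strain and were fed regular chow. The labels print the age at death as 10 with both months and weeks for its unit, so the age is not certain. In BPS-TA mice a truncated ggt promoter, active in the proximal tubule, drives the activator tTA and also TRACK, a constitutively active mutant of HIF1A. Without doxycycline tTA switches on a Cas9 nickase with guides against Bap1, Pbrm1 and Setd2, so edits are limited to cells that make tTA. A piece of cortex mixes these cells with others. In BPS-TA kidneys the paper reports edits of Bap1 and Pbrm1 at low frequency and none detected in Setd2. The BPS construct descends from a single founder mouse. The paper counts more WT kidneys than the table holds, the number of mice per cohort in the labels matches neither, and the mouse behind each kidney is not known. The p-values therefore measure the spread between these kidneys.

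Chaperones bind unfolded stretches of other proteins and help them to fold or to be handed on for destruction. HSP70 proteins do so in cycles of ATP hydrolysis, which J proteins start and which HSP110 and BAG proteins end by nucleotide exchange, and clients such as kinases and hormone receptors pass on to HSP90. The transcription factor HSF1 is held inactive by these chaperones, and when unfolded proteins draw them away it binds heat shock elements, which are repeats of the unit GAA in alternating orientation, and raises the stress-induced genes. In the kidney, tubule cells raise Hsp70 after ischaemia, and the small heat shock proteins are known for their abundance in the medulla.

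The promoters of 34 members were available from RefSeq (GRCm38.p6), as windows with 250 bases before and 50 bases after the gene start. The 7 without a window were Hspa8, Hspa9, Hsp90aa1, Hsp90ab1, Cryab, Dnajc5 and Hsf1. Both strands were searched for 3 alternating units (GAANNTTCNNGAA or TTCNNGAANNTTC) and for 2 (GAANNTTC or TTCNNGAA), every match to 3 units also being one to 2. A match to 3 units was present for 4 of 17 stress-induced members, namely Hsph1, Hspd1, Hspe1 and Chordc1, and for 1 of 17 constitutive members, Dnajb6, whereas 0.662% of 27025 genes had one. A match to 2 units was present for 13 of 17 stress-induced members (76.5%) and 4 of 17 constitutive members (23.5%), beside 17.0% of all genes. By the test described below, 10 of 13 members that fell, 7 of 19 that did not pass and 0 of 2 that rose had a match to 2 units. All 13 that fell were stress-induced members, so this split largely repeats that of the classes. Within the stress-induced class, Dnajb1, Stip1 and Ahsa1 fell without such a match. Hspb1, Hspb8 and Bag3 had a match but did not pass, and Hspa4l had none and did not pass. A match thus did not set apart the members that fell within this class. These are matches of letters only, and binding of HSF1 was not measured. The windows of Hspe1 (chr1:55087898-55088147, plus strand) and Hspa1a (chr17:34972157-34972406, minus strand) are shown. The first holds a match that also lies in a window of Hspd1, and the second belongs to the gene that fell most. Capitals mark the matches to 2 units.
Hspe1: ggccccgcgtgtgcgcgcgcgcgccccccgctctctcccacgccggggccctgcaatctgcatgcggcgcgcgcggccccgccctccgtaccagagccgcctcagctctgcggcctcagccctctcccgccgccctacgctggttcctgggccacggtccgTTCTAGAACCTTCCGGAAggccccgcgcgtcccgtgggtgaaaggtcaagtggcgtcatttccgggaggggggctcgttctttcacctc
Hspa1a: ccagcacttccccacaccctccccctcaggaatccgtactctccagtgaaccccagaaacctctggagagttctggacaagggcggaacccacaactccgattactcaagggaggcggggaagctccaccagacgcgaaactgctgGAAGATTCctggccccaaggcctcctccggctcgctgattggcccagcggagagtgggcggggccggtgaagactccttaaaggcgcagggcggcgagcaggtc
The capitals in the Hspe1 window (chr1:55088059-55088076) start 89 bases before the Hspe1 start. Hspd1 lies back to back with Hspe1, and the same bases read on the other strand start 144 bases before its own start. The bases before another listed start of Hspd1 (chr1:55088244-55088493, minus strand) hold no such match. The Hspa1b window is identical to that of Hspa1a at 247 of 250 positions (98.8%), and its 8-base match sits at the same distance, 104 bases before the start. The longest match among the members was that of Chordc1 (chr9:18292263-18292285, plus strand), which runs across the gene start. That of Hsph1 (chr5:149636288-149636300, minus strand) begins 36 bases after the start.
Hspd1: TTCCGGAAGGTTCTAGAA
Chordc1: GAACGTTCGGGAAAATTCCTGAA
Hsph1: TTCTGGAAAGTTC

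Levels were taken as FPKM (fragments scaled to transcript length and sequencing depth), a unit inferred from the values because the table names none, and the depth of each kidney is unknown. The test was limma on log2(FPKM + 1), with an adjusted p under 0.05 over 12036 genes as the threshold, and every log2 fold change below is BPS-TA over WT on that scale. All 41 members reached an FPKM of 1 in 3 or more kidneys and were tested, Hspa14 on 1 of its 2 rows. The median log2 fold change of all genes tested was 0.12, so values relative to it are also given. Principal component 1 held 65.3% of the variance and separated the groups, and component 2 (12.9%) set the pair TC-11 and TC-12 apart from the pair TC-7 and TC-8. Of the proximal tubule markers, 5 of 9 tested fell and 1 rose in BPS-TA kidneys, with a summed level of 2551 to 3021 FPKM against 3792 to 3829 FPKM in WT kidneys, and Hnf4a was listed at 0 in all kidneys. All 7 macrophage markers and all 4 markers of the thick ascending limb rose. Of all genes tested 6.56% fell and 28.5% rose. None of the skeletal muscle or adipocyte markers reached the level needed for a test. In pieces of cortex, fewer cells of a type and less RNA per cell cannot be told apart, and the part of these cell markers in the results below was not tested unless a value is given.

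By count of genes, most of the chaperone transcripts that fell in BPS-TA kidneys were stress-induced members. Of the 41 members, 16 fell, against 6.56% of all genes tested, and 4 rose, against 28.5% of all genes. In 17 members all BPS-TA kidneys lay below all WT kidneys (8.87% of all genes did), and in 8 they lay above (35.0% of all genes). Of the 19 stress-induced members 14 fell, 1 (Cryab) rose, and Hspa4l, Hspb1, Hspb8 and Bag3 did not pass the test. Of the 22 constitutive members 2 (Hspa8 and Hsp90ab1) fell, 3 (Hspa2, Dnajc5 and Dnajc7) rose and 17 did not pass. The median log2 fold change was -0.39 for the stress-induced and 0.054 for the constitutive members, or -0.51 and -0.068 relative to the median of all genes. The stress-induced members were low in each BPS-TA kidney, with median deviations from the WT mean of -0.39, -0.36, -0.38 and -0.43 on the log2 scale in the BPS-TA kidneys (ordered TC-7, TC-8, TC-11, TC-12), against 0.12, -0.059 and -0.052 in WT-5, WT-6 and WT-7. Their FPKM summed to 868.5 to 896.8 in BPS-TA kidneys and to 1093 to 1178 in WT kidneys. The FPKM of the constitutive members summed to 2322 to 2867 in BPS-TA kidneys and to 2950 to 3052 in WT kidneys, a larger difference in FPKM, in which Hspa8 had the largest share. No test compared the member groups with each other, since the genes of a list are not replicates.

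With each kidney centred on its median, 24 members were lower, against 20.6% of all genes tested, and 1 was higher, against 12.6%. The counts were then 16 lower and 1 higher for the stress-induced and 8 lower and 0 higher for the constitutive members, so the direction of the constitutive members depends on the scaling. Without TC-7 or without WT-5, 2 stress-induced members were called higher. Without WT-5 or without WT-7 no constitutive member was called lower, without WT-6, TC-7, TC-11 or TC-12 only 1 was, and without WT-6 or without WT-7 only 1 was called higher. The lower count of the stress-induced members lay between 12 and 14 with any kidney left out.

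**Figure D1:**
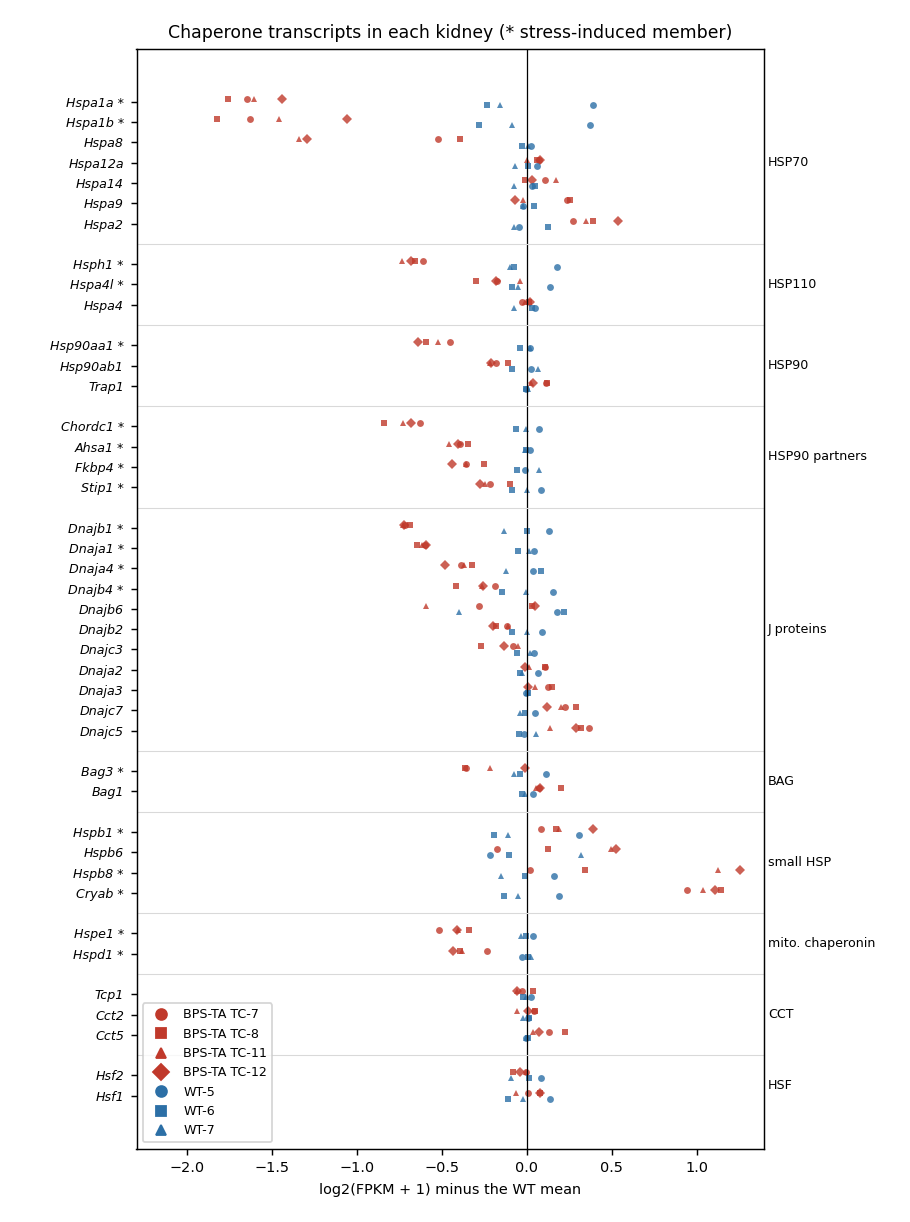
Points are single kidneys (red BPS-TA, blue WT), placed by log2(FPKM + 1) minus the WT mean of the gene, with members grouped by role and stress-induced members starred. The lowest BPS-TA points belong to Hspa1a and Hspa1b, although Hspa8 in TC-11 and TC-12 lies below Hspa1b in TC-12. The BPS-TA points of Cryab lie to the right of all its WT points. The CCT and HSF members lie near 0, with the BPS-TA points of Cct5 to the right of its WT points.

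Among the HSP70 genes, the stress-induced pair Hspa1a and Hspa1b fell most of all members. Kidney values keep the same order throughout, TC-7 first and TC-12 last for BPS-TA and WT-5 first and WT-7 last for WT. Hspa1a (ENSMUSG00000091971) stood at 2.38, 2.12, 2.48 and 2.89 FPKM in BPS-TA kidneys, against 12.9, 8.02 and 8.50 FPKM in WT kidneys. Hspa1b (ENSMUSG00000090877) stood at 4.71, 3.98, 5.42 and 7.48 FPKM in BPS-TA kidneys, against 21.9, 13.5 and 15.6 FPKM in WT kidneys. The highest BPS-TA kidney thus stayed below the lowest WT kidney for both, and WT-5 was the highest WT kidney for both. The log2 fold change was -1.62 for Hspa1a (SE 0.15, adjusted p = 2.83e-04) and -1.49 for Hspa1b (SE 0.20, adjusted p = 0.00142). Both encode almost the same protein, and 60.1% of the 51-base stretches of the Hspa1a transcript occur elsewhere among annotated transcripts, mostly in Hspa1b, so how the reads were divided between them is uncertain.

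Hspa8, the gene of the constitutive HSP70 of the cytosol, fell with a wide spread. On the FPKM scale, which is per transcript length, it had the highest group means of the members, although Hsp90ab1 stood above it in TC-11 and TC-12. It stood at 708, 774, 401.5 and 415 FPKM in BPS-TA kidneys, against 1034, 997 and 1023 FPKM in WT kidneys (log2 fold change -0.89, SE 0.23, adjusted p = 0.0211). TC-11 and TC-12 held the lowest values, and all BPS-TA kidneys lay below all WT kidneys. The call was lost without any 1 of the WT kidneys, with adjusted p = 0.0555 without WT-5, 0.0575 without WT-6 and 0.0628 without WT-7. Of the 51-base stretches of its transcript 73.0% occur elsewhere, 69.8% in the pseudogene Gm15459, and its level is uncertain for that reason.

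Of the other HSP70 genes, only Hspa2 passed the test without scaling. Hspa2, known for its role in sperm formation, rose at a low level, with 2.75, 3.07, 2.96 and 3.51 FPKM in BPS-TA kidneys against 2.01, 2.39 and 1.95 FPKM in WT kidneys (log2 fold change 0.39, adjusted p = 0.0133). The call was lost under quantile normalization (log2 fold change 0.11, adjusted p = 0.377), with each kidney centred (0.0939) and without WT-7 (0.052). Hspa9, the mitochondrial HSP70, split the BPS-TA kidneys in the way Hspa8 did, at 367 and 373 FPKM in TC-7 and TC-8 and 307 and 298 FPKM in TC-11 and TC-12, against 307 to 321 FPKM in WT kidneys (adjusted p = 0.402). Hspa12a (log2 fold change 0.052) and the main row of Hspa14 (0.074), a ribosome-associated HSP70, did not pass the test. The second row of Hspa14 (ENSMUSG00000051396) was too low for the fit, at 0.448, 0.563, 0.425 and 0.689 FPKM in BPS-TA kidneys against 0.341, 0.358 and 0.411 FPKM in WT kidneys. Its groups did not overlap, and the exact two-sided permutation test of the difference in means over 35 splits gave p = 0.114, where 0.0286 is the smallest it can give.

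Of the HSP110 genes, whose products exchange the nucleotide of HSP70, Hsph1 fell, while Hspa4 and Hspa4l passed the test only under some scalings. Hsph1, the heat-induced HSP110, stood at 64.3, 62.4, 59.1 and 61.2 FPKM in BPS-TA kidneys, against 112, 93.7 and 92.2 FPKM in WT kidneys (log2 fold change -0.67, SE 0.074, adjusted p = 5.60e-04). Its constitutive relative Hspa4 stood at 64.0 to 66.1 FPKM in BPS-TA kidneys against 61.8 to 67.3 FPKM in WT kidneys (log2 fold change -0.0010, 95% interval -0.11 to 0.11), and it was lower with each kidney centred (-0.18, adjusted p = 0.0154). Hspa4 FPKM amounted to 99.4% to 110% of Hsph1 FPKM in BPS-TA kidneys and 60.1% to 70.9% in WT kidneys. Hspa4l, which was listed as stress-induced, had a log2 fold change of -0.17 (adjusted p = 0.139), and it passed as lower under quantile normalization (adjusted p = 0.0214), centring (0.0164) and median of ratios (0.0374).

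**Figure D2:**
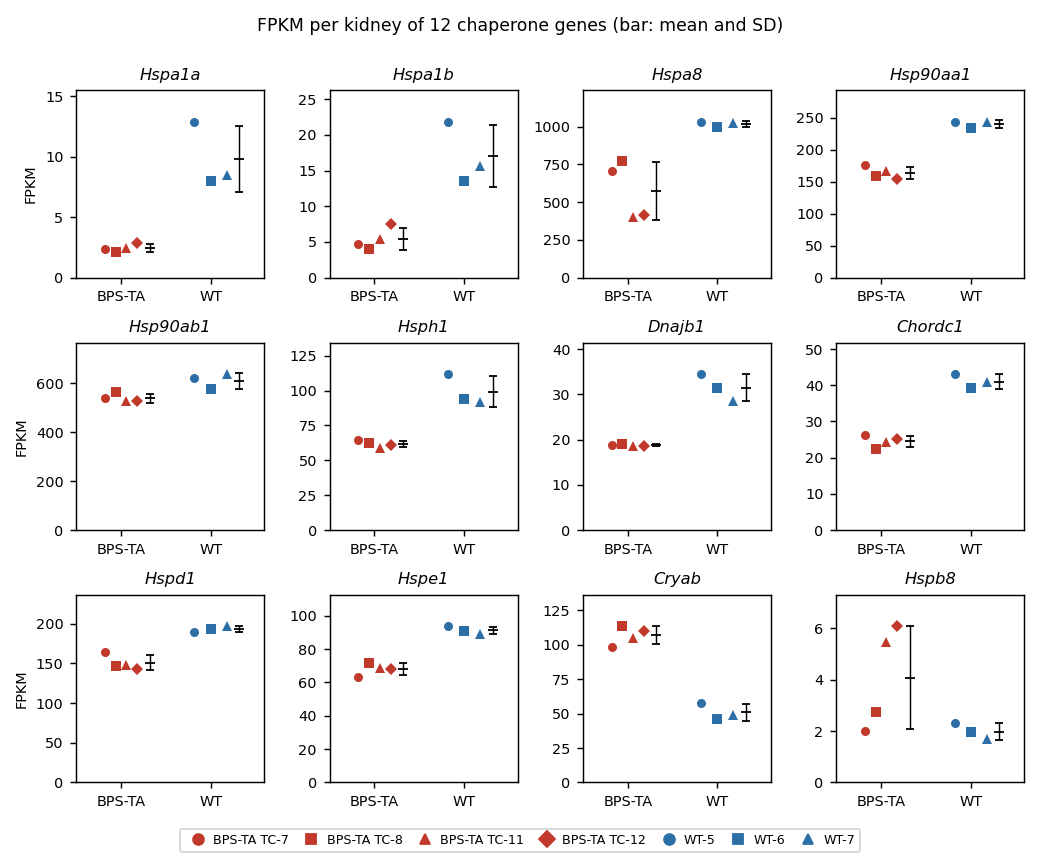
FPKM of 12 members in each kidney (points) with the mean and SD of the group beside them (black bars), each axis starting at 0. TC-11 and TC-12 stand apart from TC-7 and TC-8 for Hspa8 and Hspb8, while the BPS-TA kidneys lie close together for Dnajb1, at 18.5 to 19.1 FPKM.

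The HSP90 genes of the cytosol both fell, the stress-induced one more. Hsp90aa1 stood at 175, 159, 167 and 154 FPKM in BPS-TA kidneys, against 243, 233 and 244 FPKM in WT kidneys (log2 fold change -0.55, SE 0.056, adjusted p = 3.78e-04). Hsp90ab1, the constitutive form, stood at 539, 566, 526 and 528 FPKM in BPS-TA kidneys, against 621, 575 and 638 FPKM in WT kidneys (log2 fold change -0.18, SE 0.053, adjusted p = 0.0319). The groups did not overlap for either gene, but TC-8 came close to WT-6 for Hsp90ab1. Hsp90aa1 amounted to at most 32.5% of Hsp90ab1 in the BPS-TA kidneys and to at least 38.2% in the WT kidneys. The call of Hsp90ab1 was lost without WT-5 (adjusted p = 0.0921), WT-7 (0.119), TC-7 (0.0574), TC-11 (0.0803) or TC-12 (0.0781), and 58.3% of the 51-base stretches of Hsp90aa1 occur elsewhere, mostly in the pseudogene Gm12346. Trap1, the mitochondrial HSP90, stood at 122, 122, 114 and 116 FPKM in BPS-TA kidneys and 112, 112 and 113 FPKM in WT kidneys (adjusted p = 0.238).

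All 4 partners of HSP90 among the members fell, where 6.56% of all genes tested fell. Chordc1, whose product binds HSP90 and is induced by heat, stood at 26.1, 22.5, 24.3 and 25.1 FPKM in BPS-TA kidneys, against 43.1, 39.1 and 40.8 FPKM in WT kidneys (log2 fold change -0.72, SE 0.065, adjusted p = 2.09e-04). Ahsa1, the activator of the HSP90 ATPase, stood at 41.9, 43.4, 40.1 and 41.6 FPKM in BPS-TA kidneys, against 56.2, 55.2 and 55.0 FPKM in WT kidneys (log2 fold change -0.40, adjusted p = 6.66e-04). Chordc1 is the gene with the long match printed above, while Ahsa1 and Stip1 had no match to 2 units. No member of this role overlapped between the groups, and 8.87% of all genes tested lay below in all BPS-TA kidneys. Fkbp4, an immunophilin that joins HSP90 to steroid receptors, stood at 101, 109, 101 and 95.4 FPKM in BPS-TA kidneys, against 129, 124 and 136 FPKM in WT kidneys (log2 fold change -0.35, adjusted p = 0.00318). Stip1, which links HSP70 to HSP90, stood at 36.4, 39.6, 35.7 and 35.0 FPKM in BPS-TA kidneys, against 45.2, 40.0 and 42.6 FPKM in WT kidneys (log2 fold change -0.21, adjusted p = 0.0346). The call of Stip1 was lost without WT-5 (adjusted p = 0.112), WT-7 (0.0935), TC-7 (0.0633), TC-11 (0.0813) or TC-12 (0.0858).

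Of the 11 J proteins, which bring clients to HSP70, the 4 listed as stress-induced fell, where 6.56% of all genes tested fell. Dnajb1, the heat-induced partner of cytosolic HSP70, stood at 18.7, 19.1, 18.5 and 18.6 FPKM in BPS-TA kidneys, against 34.5, 31.5 and 28.5 FPKM in WT kidneys (log2 fold change -0.71, SE 0.068, adjusted p = 2.80e-04). Dnaja1 stood at 32.2, 31.2, 31.8 and 32.4 FPKM in BPS-TA kidneys, against 50.8, 47.6 and 49.7 FPKM in WT kidneys (log2 fold change -0.61, SE 0.046, adjusted p = 8.32e-05). The BPS-TA kidneys were nearly alike for both genes. Dnaja4 stood at 11.0, 11.6, 11.2 and 10.3 FPKM in BPS-TA kidneys, against 15.2, 15.7 and 13.4 FPKM in WT kidneys (log2 fold change -0.39, adjusted p = 0.00453). Dnajb4 stood at 27.9, 23.6, 26.4 and 26.5 FPKM in BPS-TA kidneys, against 35.6, 28.7 and 31.8 FPKM in WT kidneys (log2 fold change -0.28, adjusted p = 0.0340). Dnajb4 was the least certain of these, since its call was lost without WT-5 (adjusted p = 0.104), WT-7 (0.0864), TC-8 (0.0597), TC-11 (0.0647) or TC-12 (0.0638).

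Of the 7 constitutive J proteins 0 were called lower by limma (1 at an unadjusted p under 0.05, Dnajb2) and 2 rose, a share close to the 28.5% of all genes. Dnajc5, the cysteine string protein of secretory vesicles, rose, with 40.7, 39.4, 34.5 and 38.6 FPKM in BPS-TA kidneys against 31.0, 30.4 and 32.6 FPKM in WT kidneys (log2 fold change 0.28, adjusted p = 0.0135). Dnajc7, which carries TPR repeats that bind HSP70 and HSP90, rose too, with 112, 117, 110.0 and 103 FPKM in BPS-TA kidneys against 98.8, 94.9 and 92.7 FPKM in WT kidneys (log2 fold change 0.21, adjusted p = 0.0188). Both calls were lost with each kidney centred, with adjusted p = 0.264 for Dnajc5 and 0.646 for Dnajc7. Both were lost with median of ratios as well, and that of Dnajc5 under quantile normalization. They were also lost without WT-6 (0.0545 for Dnajc5 and 0.0643 for Dnajc7), and that of Dnajc7 without WT-7 (0.0727). Dnajb2 lay below in all BPS-TA kidneys, at 22.9, 21.8, 23.0 and 21.6 FPKM against 26.6, 23.5 and 24.9 FPKM in WT kidneys, and missed the threshold (adjusted p = 0.0743), which it passed under quantile normalization (0.0167), centring (0.00564) and median of ratios (0.0117). Dnaja3, a mitochondrial J protein, lay above, at 58.9, 59.9, 55.8 and 54.3 FPKM in BPS-TA kidneys against 53.7, 54.1 and 53.9 FPKM in WT kidneys (adjusted p = 0.230). Dnaja2, Dnajb6 and Dnajc3, the last an inhibitor of the kinase PERK in the endoplasmic reticulum, overlapped between the groups, with log2 fold changes of 0.055, -0.20 and -0.13. Dnajc3 was lower with centring (adjusted p = 0.013) and median of ratios (0.0275).

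Neither BAG gene passed the limma test, and 1, Bag3, had an unadjusted p under 0.05. Bag3, a heat-induced exchange factor that works with Hspb8, stood at 12.6, 12.5, 14.0 and 16.3 FPKM in BPS-TA kidneys, against 17.9, 16.0 and 15.5 FPKM in WT kidneys (log2 fold change -0.24, adjusted p = 0.0947). TC-12 lay within the WT range, and without it Bag3 passed (adjusted p = 0.027), as it did under quantile normalization (0.028), centring (0.012) and median of ratios (0.028). Bag1 stood at 140.0, 153, 138 and 141 FPKM in BPS-TA kidneys, against 136, 131 and 132 FPKM in WT kidneys (adjusted p = 0.154).

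Of the 4 small heat shock proteins, which hold unfolded proteins without ATP, 1 rose and 3 did not pass the test. Cryab, the gene of alpha B-crystallin, was the 1 stress-induced member that rose, with 98.6, 113, 105 and 110.3 FPKM in BPS-TA kidneys against 57.9, 46.1 and 48.7 FPKM in WT kidneys (log2 fold change 1.06, SE 0.085, adjusted p = 1.16e-04). Summed over the 4 small heat shock protein genes, FPKM came to 110.6 to 132.4 in BPS-TA kidneys and 57.8 to 70.7 in WT kidneys, most of it Cryab. Hspb8 stood at 2.01, 2.76, 5.49 and 6.08 FPKM in BPS-TA kidneys, against 2.32, 1.95 and 1.68 FPKM in WT kidneys (log2 fold change 0.69, SE 0.29, adjusted p = 0.102). Only TC-11 and TC-12 were high, and without TC-7 the gene passed (adjusted p = 0.0263). Hspb1 had a log2 fold change of 0.21 (adjusted p = 0.253, and 0.0409 without WT-5), and 51.5% of its 51-base stretches also occur in the pseudogene Hsp25-ps1. Hspb6 had a log2 fold change of 0.24 (adjusted p = 0.361).

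Several marker lists were higher in BPS-TA kidneys, where 28.5% of all genes tested rose. Thick ascending limb markers summed to 2790 to 3322 FPKM in BPS-TA kidneys against 1574 to 1816 FPKM in WT kidneys, and all 4 rose, with Slc12a1, the sodium, potassium and chloride carrier, changing most (log2 fold change 0.88). Of 7 collecting duct markers 5 rose and 1, Aqp4, fell, with a summed level of 538 to 670 FPKM in BPS-TA kidneys and 389.5 to 446 FPKM in WT kidneys. Slc14a2 changed most among them (log2 fold change 1.58, limma adjusted p = 0.0181), at 9.13, 6.605, 2.49 and 4.84 FPKM in BPS-TA kidneys. In WT kidneys it stood at 1.81, 0.238 and 1.71 FPKM. The median deviation of 5 fibroblast markers was 0.44, 0.30, 0.96 and 1.10 in the BPS-TA kidneys, and that of 7 macrophage markers was 0.59, 0.71, 0.95 and 1.10. Both were higher in TC-11 and TC-12, where Hspb8 was high and Hspa8 low. Component 2 of all genes tested also set this pair apart, so the split is not particular to these lists. For 9 proximal tubule markers the median deviation was -0.19, -0.086, -0.23 and -0.16. Markers of skeletal muscle, a tissue rich in Cryab, summed to 0.0201 to 0.221 FPKM in BPS-TA kidneys and to 0 to 0.0388 FPKM in WT kidneys. The 3 smooth muscle markers tested did not pass. The part of any of these cell types in the results, or of medulla in the pieces of cortex, was not tested.

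The mitochondrial chaperonin genes both fell. The match printed above lies between their starts, and its part in the fall was not tested. Hspd1 (HSP60) stood at 164, 147, 148 and 143 FPKM in BPS-TA kidneys, against 189, 194 and 197 FPKM in WT kidneys (log2 fold change -0.36, SE 0.056, adjusted p = 0.00248). Hspe1 (HSP10), the lid of the HSP60 barrel, stood at 63.5, 72.0, 68.5 and 68.4 FPKM in BPS-TA kidneys, against 93.7, 91.1 and 89.1 FPKM in WT kidneys (log2 fold change -0.42, SE 0.053, adjusted p = 0.00104). Neither gene overlapped between the groups, and Hspe1 amounted to 38.7% to 49.1% of Hspd1 in BPS-TA kidneys and to 45.3% to 49.5% in WT kidneys. Pseudogene copies make both levels uncertain, as 44.3% of the 51-base stretches of Hspd1 and 35.5% of those of Hspe1 occur elsewhere.

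Members of the cytosolic chaperonin CCT, a ring that folds actin and tubulin, did not pass the limma test without scaling, and 0 of 3 had an unadjusted p under 0.05. With each kidney centred, 2 of 3 were lower, Tcp1 (-0.20, adjusted p = 0.010) and Cct2 (-0.17, adjusted p = 0.022), and Tcp1 also with median of ratios (adjusted p = 0.0249). Without scaling the log2 fold change was -0.029 for Tcp1 (95% interval -0.13 to 0.07), 0.0092 for Cct2 (-0.09 to 0.11) and 0.12 for Cct5 (-0.01 to 0.24). Cct5 stood at 88.3, 94.7, 82.9 and 85.0 FPKM in BPS-TA kidneys, against 80.6, 81.2 and 80.5 FPKM in WT kidneys, and its groups did not overlap. Neither heat shock factor gene passed the test without scaling. Hsf1 stood at 9.69, 10.2, 9.19 and 10.2 FPKM in BPS-TA kidneys, against 10.7, 8.85 and 9.46 FPKM in WT kidneys (log2 fold change 0.025, 95% interval -0.15 to 0.20, adjusted p = 0.817). Hsf2 had a log2 fold change of -0.034 (adjusted p = 0.722), and it was lower under quantile normalization (-0.25, adjusted p = 0.0202) and centring (-0.21, adjusted p = 0.0371). These are transcript levels, and HSF1 is known to be governed mainly by its binding partners and by modification of the protein.

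**Figure D3:**
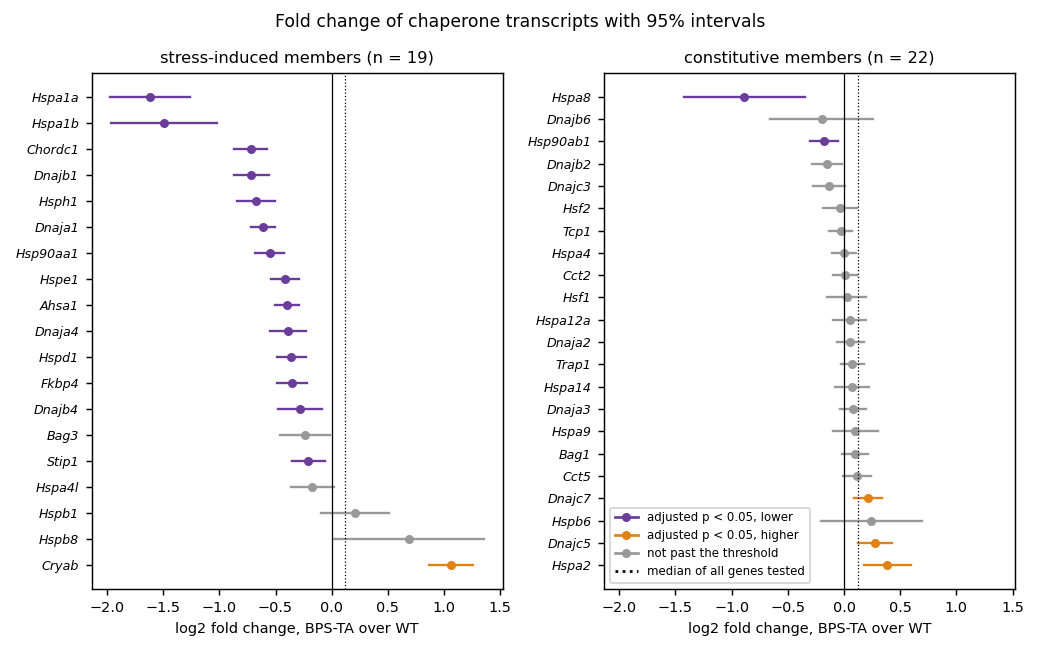
Log2 fold change of each member, BPS-TA over WT, with its 95% interval, for the 19 stress-induced members (left) and the 22 constitutive members (right). The dotted line is the median of all genes tested, 0.12, and the fold changes run between -1.62 for Hspa1a and 1.06 for Cryab on the left and between -0.89 for Hspa8 and 0.39 for Hspa2 on the right.

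Other genes of the folding machinery were counted beside the members, where 6.56% of all genes tested fell and 28.5% rose. Of 9 other CCT and prefoldin genes 0 passed the limma test, with 1 lower at an unadjusted p under 0.05 (median log2 fold change 0.0083), and 5 were lower with centring. Of 18 other co-chaperones 1 fell and 1 rose. St13, which binds HSP70, fell (log2 fold change -0.25, adjusted p = 0.0236). Bag2, an exchange factor that blocks the ubiquitin ligase CHIP, rose, with 25.1, 22.6, 21.0 and 19.9 FPKM in BPS-TA kidneys against 8.83, 8.88 and 9.53 FPKM in WT kidneys (log2 fold change 1.19, adjusted p = 5.64e-05). Of 25 other J proteins 1 fell and 3 rose, led by Dnajc8 (log2 fold change 0.47), and the one that fell was Dnajb11 (-0.42), a J protein of the endoplasmic reticulum. Of 11 mitochondrial protein quality genes 2 rose, Lonp1 (log2 fold change 0.48), a protease of the matrix, and Clpb (0.25), a share below the 28.5% of all genes. In limma 0 of the 11 were lower, also at an unadjusted p under 0.05, and with centring 3 were lower and 1 higher.

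Hspb2, which lies beside Cryab in the genome, rose (log2 fold change 0.67), and so did 3 more of 7 other heat shock protein and factor genes, where 28.5% of all genes rose and 6.56% fell. Among these, Hsf4 reached the level for a test only in BPS-TA kidneys, so its call depends on the group where it is high. With centring 2 of the 7 were lower and 2 higher. Of 9 other genes known to be induced by heat 2 fell, Cacybp (log2 fold change -0.26) and the autophagy receptor gene Sqstm1 (-0.19), and 1 rose, Ier5 (0.56). The chaperones of the endoplasmic reticulum, which answer to a different stress pathway, fell in 7 of 10 cases (median log2 fold change -0.23), and Sdf2l1, Creld2 and Hyou1 changed most. Sdf2l1 stood at 4.52, 5.70, 5.37 and 6.01 FPKM in BPS-TA kidneys, against 12.8, 10.3 and 12.4 FPKM in WT kidneys (adjusted p = 4.47e-04), and the log2 fold change was -0.91 for Creld2 and -0.70 for Hyou1.

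**Figure D4:**
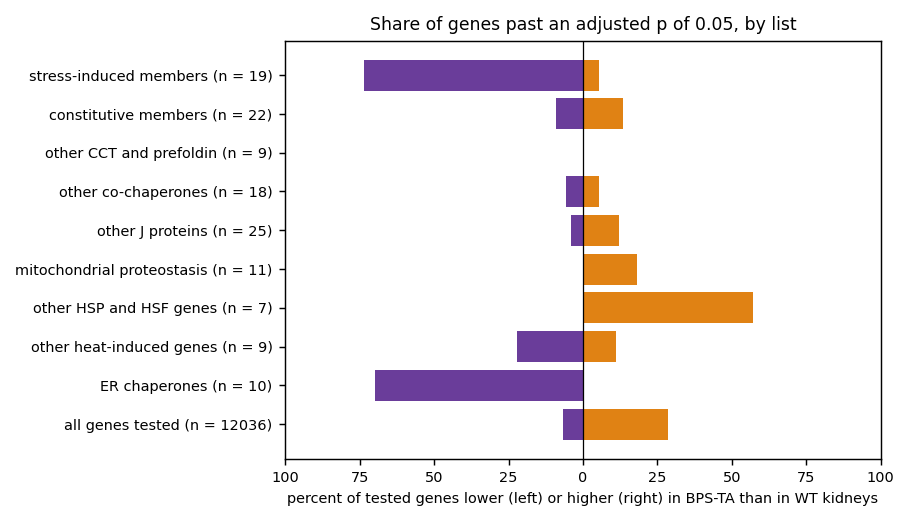
Percent of the tested genes of each list that were lower (left of 0) or higher (right of 0) in BPS-TA than in WT kidneys at an adjusted p under 0.05. The stress-induced members, with 14 of 19 lower, and the chaperones of the endoplasmic reticulum, with 7 of 10, reach farther left than the other lists drawn, and all genes tested reach 6.56% to the left and 28.5% to the right.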

How the data were processed

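Kidney cortex RNA was sequenced by the authors as single reads of 51 bases, and the table holds 4 BPS-TA and 3 WT kidneys, fewer WT kidneys than the paper counts. Per the labels, mm9 was the genome and DESeq 1.32 the tool for comparison, while no source used here names the aligner or the counting program. The deposited FPKM, a unit inferred from the values, were computed by the authors in a way that no source used here states. They total 1473813 to 1808843 per kidney, of which Gpx3 takes 55.5% to 61.7%, and the depth is unknown. The authors' own comparison, with fold changes, test statistics and p-values, was not used. Columns were assigned to groups by the WT or TC in their names. After 83 entries of 37 repeated identifiers were left out, genes that reached an FPKM of 1 in 3 or more kidneys were fitted as log2(FPKM + 1) with limma (3.58.1, R 4.3.3) with a mean-variance trend, no covariates and Benjamini-Hochberg adjustment, as the files hold no counts for each kidney. Steps were tested on simulated data.

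The members and lists were chosen with earlier results of these data known. Kidney values are given for every member that passed the threshold or whose groups did not overlap and for Hspa1a, Hspa1b, Hsf1, Hspa8 and Hsp90ab1, and for up to 3 genes of each other list the largest changes are named; other values printed were added after they were seen. Alternatives were quantile normalization, centring on the median, scaling by the median of ratios, a pseudocount of 0.1, other filters, no trend, an adjusted p under 0.01, each kidney left out and a narrow stress-induced list of 8 genes. Promoter windows came from RefSeq (GRCm38.p6) and shared 51-base stretches from GENCODE M21 transcripts. Figures used matplotlib 3.10.9.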

Additional observations from a re-analysis of the deposited data

How the results depend on the processing

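No paired analysis was possible because the numbers in the column names match no replicate number and are not shared between the groups beyond a single one. Counts of the stress-induced members that fell (14) lay between 12 and 16 under all alternatives on the full list, and the narrow list of 8 genes gave 5. Counts moved most with scaling. Under quantile normalization, centring and median of ratios, 1724, 2480 and 1688 of all genes were lower (790 without scaling) and 1416, 1515 and 2116 higher (3425), while 2, 1 and 2 members were higher (4), 5, 8 and 5 constitutive members lower (2) and 1, 0 and 1 higher (3). An adjusted p under 0.01 gave 363 genes lower and 1747 higher, 1 member higher, and 0 constitutive members lower and 0 higher. Without the trend 1 constitutive member was lower. With each kidney left out, genes lower ranged between 484 (without WT-6) and 905, genes higher between 2276 (without WT-7) and 3301, members higher between 2 and 5, stress-induced members higher between 1 and 2, constitutive members lower between 0 and 2 and higher between 1 and 3.

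Fold changes near 0 turned sign. Under quantile normalization the log2 fold change was -0.19 for Hspa12a (adjusted p = 0.0453), -0.073 for Hspa14, -0.057 for Hspb1, -0.16 for Hsf1 and -0.029 for Cct2. With centring it was -0.075 for Hspa9, -0.12 for Hspa12a, -0.10 for Hspa14, -0.10 for Trap1, -0.12 for Dnaja2, -0.092 for Dnaja3, -0.074 for Bag1, -0.15 for Hsf1, -0.17 for Cct2 (adjusted p = 0.022) and -0.059 for Cct5. With median of ratios it was -0.020 for Hspa9, -0.049 for Hspa12a, -0.039 for Hspa14, -0.048 for Trap1, -0.065 for Dnaja2, -0.036 for Dnaja3, -0.019 for Bag1, -0.085 for Hsf1, -0.11 for Cct2 and -0.0036 for Cct5. With each kidney left out it ranged between -0.038 and 0.022 for Hspa4, -0.030 and 0.093 for Hsf1, -0.081 and 0.0076 for Hsf2 and -0.0029 and 0.031 for Cct2. The causes were not tested.

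FPKM without counts give no counting error, so the precision rests on 4 and 3 kidneys, and the pseudocount lowers fold changes near an FPKM of 1. Of the listed genes, Cct6a, Spg7, Acta1 and Junb were not analysed here.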

Other observations

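Among 5 genes of osmolyte uptake and their regulator Nfat5, 3 rose in BPS-TA kidneys, where 28.5% of all genes tested rose. Akr1b3, the aldose reductase that makes sorbitol, stood at 10.4, 12.2, 12.3 and 13.9 FPKM in BPS-TA kidneys (in the order of the report), against 5.91, 8.54 and 8.54 FPKM in WT kidneys (log2 fold change 0.62, limma adjusted p = 0.0102). Slc6a6, the taurine transporter, had a log2 fold change of 0.29 (adjusted p = 0.00265). Slc6a12, the betaine transporter, had one of 1.01 and is 1 of the 3. It reached the level for a test only in BPS-TA kidneys, so its call depends on the group where it is high. Of 14 immediate early genes tested 4 fell and 4 rose, where 6.56% of all genes tested fell and 28.5% rose. The share that rose was thus close to that of all genes. Egr1 fell most, at 1.55, 1.25, 2.08 and 2.16 FPKM in BPS-TA kidneys against 31.1, 34.6 and 19.5 FPKM in WT kidneys (log2 fold change -3.39, adjusted p = 2.66e-05), while Klf2 rose (0.66, adjusted p = 0.00157).

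The core of the HIF binding site (ACGTG or GCGTG on either strand) was present in the promoter window of 10 of 17 stress-induced members and 14 of 17 constitutive members, beside 46.7% of all genes. Of the other cell type markers, all 5 of endothelium rose, with Emcn changing most (log2 fold change 0.68), where 28.5% of all genes tested rose. Of 5 lymphocyte markers 3 were too low for a test, Jchain rose (3.53), and Cd79a reached the level for a test only in BPS-TA kidneys. Intercalated cell markers rose in 3 of 4 cases (Slc4a1, 0.71) and podocyte markers in 1 of 4 (Podxl, 0.50), the latter a share close to that of all genes. Of 3 markers of the distal convoluted tubule 0 passed limma, with 1 at an unadjusted p under 0.05. Fibroblast markers rose in 3 of 5 cases (Col3a1, 1.03), and Slc22a6 changed most among proximal tubule markers (-1.72).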
